A study of Mus musculus with 6 samples.

Results

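The genes described here build, power and supply cilia. Every gene identifier listed for both preparations was taken when its symbol began with *Dnah*, *Rsph*, *Tekt*, *Cfap* or *Ift* followed by a digit, or with *Dnai*, and *Foxj1* was added. This gave 73 genes of 27514 identifiers listed for both. They were 17 axonemal dynein genes (*Dnah* genes with *Dnaic1* and *Dnaic2*), 8 radial spoke genes (*Rsph*), 5 tektin genes (*Tekt*), 26 cilia and flagella associated genes (*Cfap*), 14 intraflagellar transport genes (*Ift*, 3 of complex A and 11 of complex B), the antisense transcripts *Ift88os* and *Dnah2os*, and *Foxj1*. The dynein, spoke, tektin and *Cfap* genes, 56 in all, are together called motile axoneme genes. In the hippocampus, 71 of the 73 had at least 10 unique molecular identifiers (UMIs, each marking 1 captured RNA molecule), *Rsph6a* had 1 and *Ift88os* none, and in the cortex 56 had at least 10.

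Cells came from untreated female C57Bl/6J mice, a common inbred wild-type strain. Hippocampi of 3 mice aged 5 weeks were pooled into 1 suspension and cerebral cortices of 3 mice aged 3 weeks into another. Each suspension was run as 3 technical replicates by droplet sequencing of transcript 3′ ends, without a sort or other enrichment. There was thus 1 biological sample per region, so no test was made, and every SD (n = 3 libraries) and 95% interval given here covers technical or counting error only. Region, age, preparation and gene annotation change together between the suspensions and cannot be told apart.

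Motile cilia bend when axonemal dyneins slide the microtubule doublets of the axoneme past each other. Outer and inner dynein arms are built from heavy chains (DNAH proteins) and intermediate chains, radial spokes relay signals between the central pair and the arms, and tektins run inside the doublet wall. Intraflagellar transport carries cargo along the cilium, with complex B on the way to the tip and complex A on the way back, and serves motile and primary cilia alike. In the brain, ependymal cells line the ventricles and carry tufts of motile cilia that move cerebrospinal fluid, choroid plexus epithelial cells carry small tufts, and astrocytes and neurons usually carry a solitary primary cilium. FOXJ1 is the transcription factor that switches on the motile cilium programme.

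Library totals were 43963706 to 50024850 UMIs in the hippocampus and 39662203 to 42097490 in the cortex, and 14210 and 13320 cells were kept. Classes were named from marker lists that held no gene of the module, and the module and the related cilia genes were left out of the clustering. In the hippocampus, 210 cells were ependymal-like (73, 75 and 62 per library; all 8 markers, among them *Tmem212*, *Rarres2* and *Hdc*), 825 choroid plexus-like (*Ttr*, *Kl*, *Folr1*), 1875 astrocyte-like, 599 neuron-like, 2465 vascular-like and 5819 microglia-like. The neuron-like cells were mostly immature, with 417 of them in a cluster led by *Neurod1*, *Igfbpl1* and *Sox11*. Barcodes that occurred in more than 1 hippocampal library numbered 339, and they made up 45 of the ependymal-like cells (21.4%) and 558 of the choroid plexus-like cells (67.6%), against at most 19 cells in each of the astrocyte-, neuron-, vascular- and microglia-like classes. Calls and summed levels of these 2 classes are therefore also given without shared barcodes. The cortex had no ependymal-like or choroid plexus-like cluster. By their own marker UMIs 0 of 13320 cortical cells were ependymal-like, although 1 cortical cell held UMIs of all 8 markers. In the hippocampus this rule named 83 cells ependymal-like where clustering named 210, so the cortical 0 sets no limit on the share. By the same rule 9 cortical cells were choroid plexus-like, with 125 motile axoneme UMIs (1693 CPM). A cortical cluster of 403 cells led by *Ttr*, *Enpp2* and *Sostdc1*, with a median of 1328 UMIs, stayed unnamed, and its motile axoneme sum was 244 CPM.

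Summed over the 56 genes, motile axoneme RNA was far higher in ependymal-like cells than in any other class of the hippocampus. It came to 9357, 8818 and 9516 CPM (UMIs of these genes per 1000000 UMIs of the class and library) in the 3 libraries, 9231 ± 366 (SD). Choroid plexus-like cells had 1290.0, 1526 and 1317 CPM. Astrocyte-like cells had 304, 310.3 and 318 CPM and neuron-like cells 341, 319.8 and 321 CPM. Vascular-like cells had 217, 223 and 217 CPM, and microglia-like cells, the most numerous class, 191, 179 and 187 CPM. Outside ependymal-like and choroid plexus-like cells, much of the sum came from broadly found genes such as *Cfap20* and *Cfap36*. Over all libraries these were at 54.6 and 76.1 CPM in astrocyte-like and 89.5 and 84.7 CPM in neuron-like cells. Vascular-like cells had 83.98 and 55.1 CPM of them and microglia-like cells 48.3 and 23.6 CPM. The order of these classes by their sum thus says little about genes specific to motile cilia. The libraries of ependymal-like cells did not overlap those of any other class, choroid plexus-like cells ranked next, and the astrocyte- and neuron-like libraries lay closest to each other. Without shared barcodes the sum was 9252 CPM over 165 ependymal-like cells and 1417 CPM over 267 choroid plexus-like cells.

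The 14 *Ift* genes differed less between classes. Their sum was 2364, 2352 and 2350.3 CPM in ependymal-like, 685, 869.8 and 711 CPM in choroid plexus-like and 573, 561 and 617 CPM in neuron-like cells. Astrocyte-like cells had 439, 444 and 466 CPM, vascular-like cells 421, 428 and 424 CPM and microglia-like cells 214, 216 and 213 CPM. Ependymal-like cells were thus again highest, and microglia-like cells were lowest of these 6 classes in every library.

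**Figure D1:**
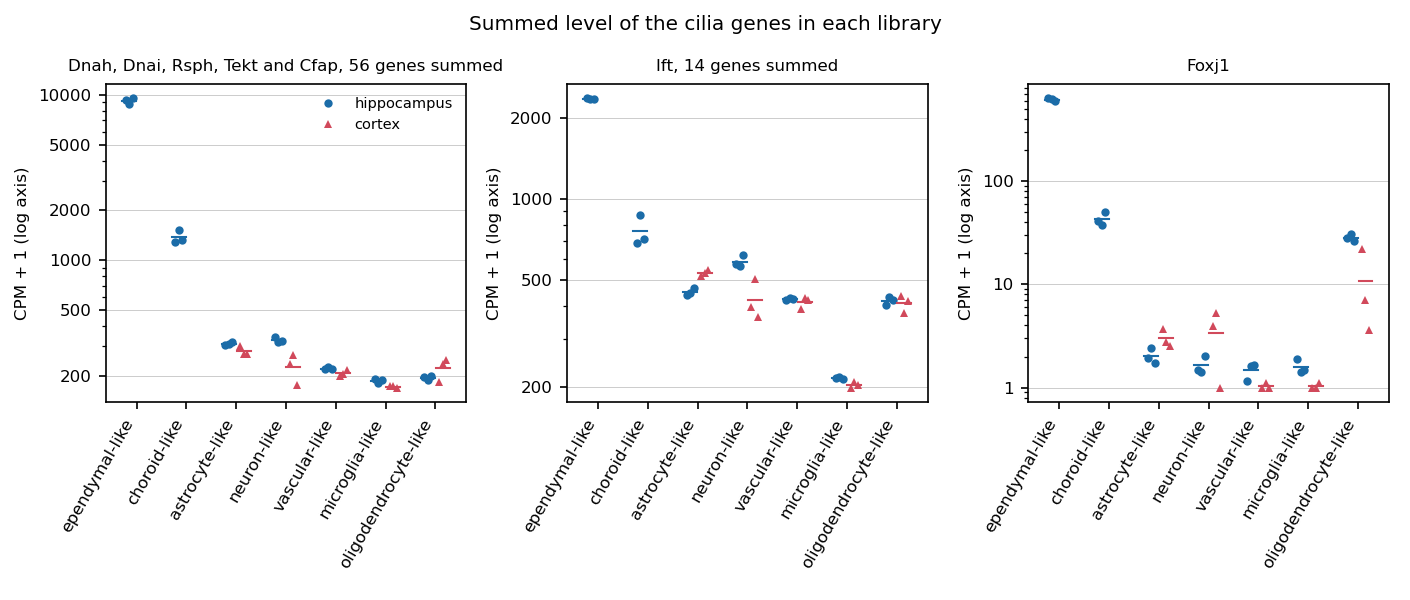
Summed level of the motile axoneme genes, of the Ift genes and of Foxj1 in each library, by cell class, as CPM + 1 on a log axis; each point is 1 library of the hippocampus (circles) or cortex (triangles) and bars are means. Ependymal-like cells lie highest in all 3 panels, with motile axoneme sums of 8818 to 9516 CPM.

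*Foxj1* (chromosome 11, 116330704 to 116335399 on the minus strand of GRCm38) was also highest in ependymal-like cells, followed by choroid plexus-like cells. It was counted at 635, 629.7 and 596 CPM in ependymal-like cells and 40.0, 37.1 and 49.9 CPM in choroid plexus-like cells. In astrocyte-like cells it was at 0.942, 1.44 and 0.728 CPM (13 UMIs), in neuron-like cells at 0.492, 0.409 and 1.01 CPM (4 UMIs) and in vascular-like cells at 0.161, 0.601 and 0.657 CPM (9 UMIs). The ratio of ependymal-like to astrocyte-like cells was 599.9-fold (counting interval 349 to 1131), and that to choroid plexus-like cells 14.7-fold (counting interval 12.2 to 17.8). Astrocyte-, neuron- and vascular-like cells were near the microglia-like level of 0.901, 0.415 and 0.468 CPM.

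Gene by gene, a difference between classes was called when the CPM of summed UMIs, with 5 CPM added to both sides, differed at least 4-fold, the 3 libraries of the classes did not overlap and the gene had at least 10 UMIs in the hippocampus. Levels are in CPM and were compared only within a gene, between classes. Of the 73 genes, 55 were called higher in ependymal-like than in astrocyte-like cells, where 6.27% of all genes tested were, and 0 were called lower (2.84% of all genes). Over choroid plexus-like cells 50 were called higher (7.77% of all genes), over neuron-like cells 50 (5.6%) and over vascular-like cells 58 (7.01%). None was called lower in any of these comparisons, where 1.28%, 4.3% and 5.05% of all genes were. Over astrocyte-like cells the median log2 ratio with 5 CPM added was 3.96 for motile axoneme genes and 2.13 for *Ift* genes, against 0 for all genes. Ependymal-like cells had the highest level of the 5 classes for 66 genes. After a new clustering without shared barcodes, 55, 50, 50 and 58 genes were called over these 4 classes. When cells were classed by their own marker UMIs with no upper limit on genes, the count over astrocyte-like cells was 19. Under this rule the *Ift* sum and *Foxj1* level of ependymal-like cells were the same with and without the limit. Clustering with no upper limit, chosen after seeing the data, gave motile axoneme sums of 9436 CPM in ependymal-like and 321 CPM in astrocyte-like cells. Why the count fell was not tested, and the share of all genes called under these alternatives is not given.

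**Figure D2:**
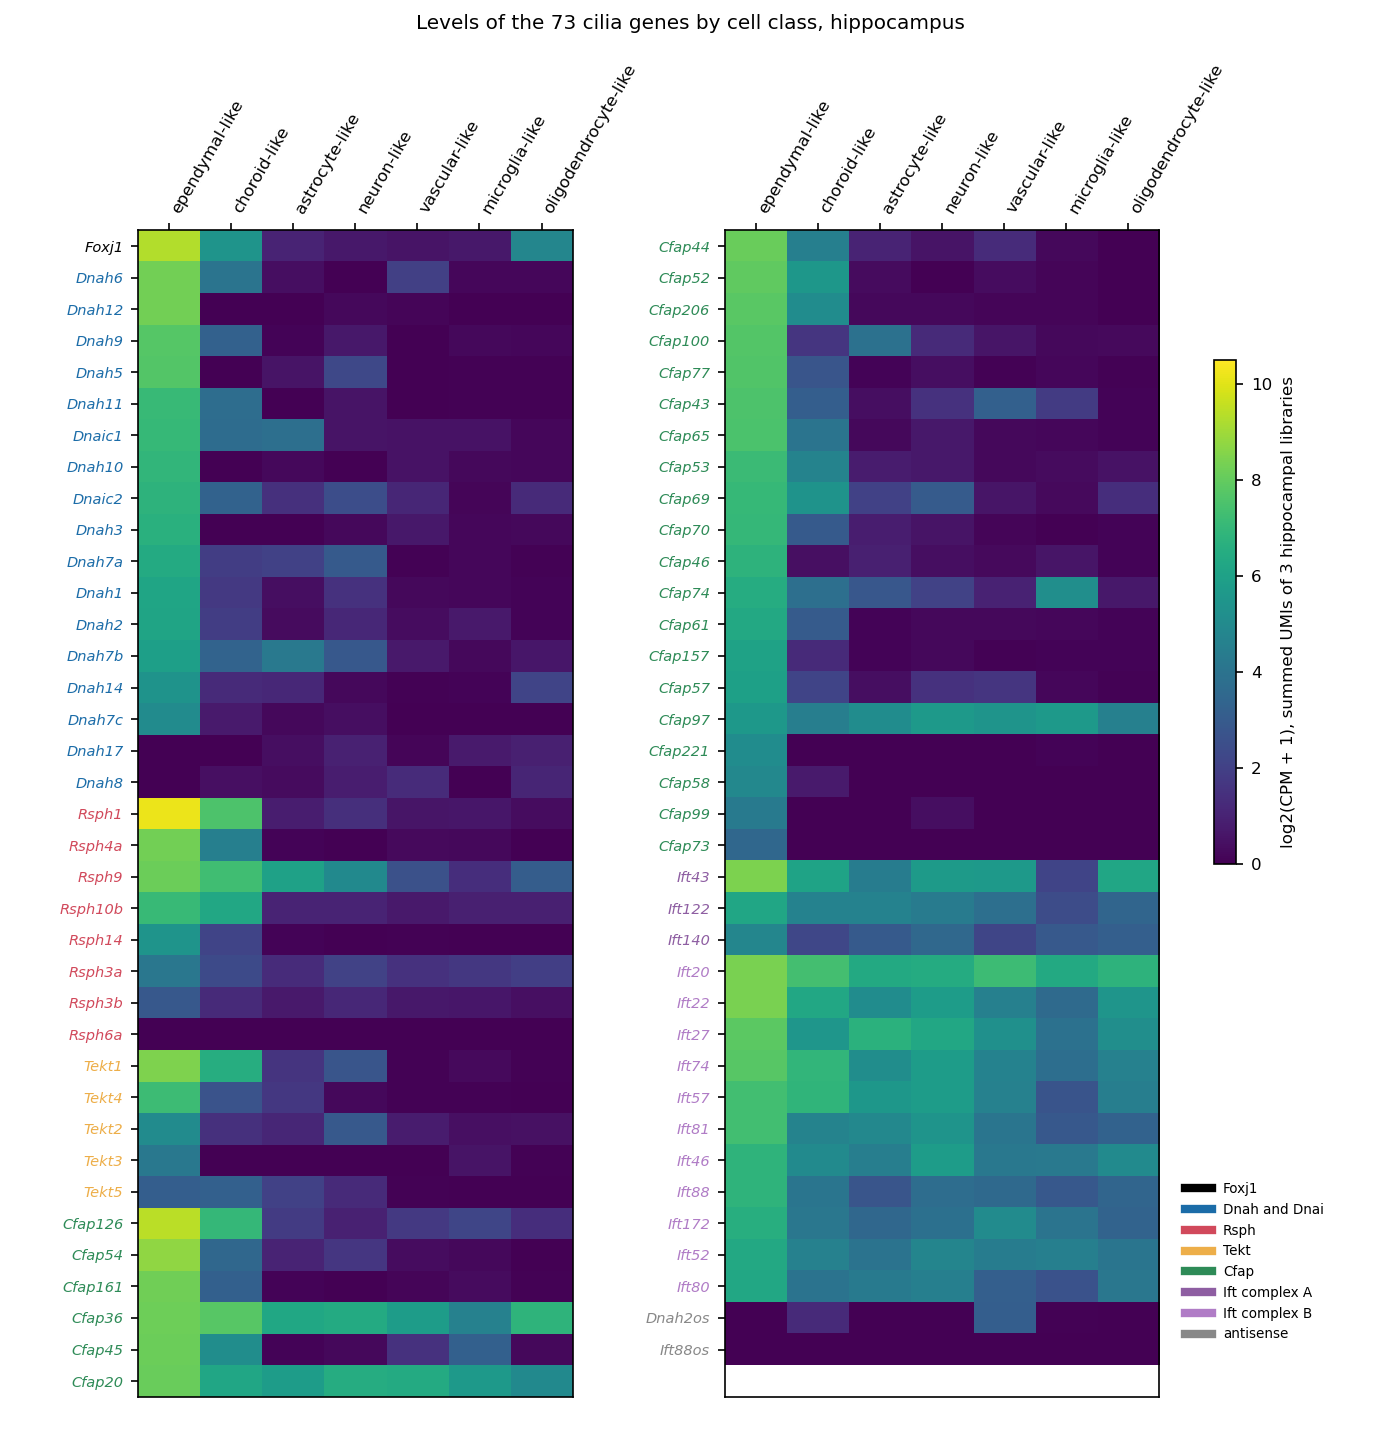
Levels of the 73 cilia genes in hippocampal cell classes (columns), with gene names coloured by family; colour gives log2(CPM + 1) of the UMIs summed over the 3 libraries. Among the 5 leftmost columns, ependymal-like cells hold the highest level of 66 genes.

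Axonemal dyneins supply the force of the beat, and 14 of the 17 genes were called higher in ependymal-like than in astrocyte-like cells, with a median log2 ratio of 3.85. *Dnah12*, an inner arm heavy chain (chromosome 14, 26693274 to 26891703 on the plus strand), was at 320.2, 293 and 306 CPM in ependymal-like cells and had no UMI in astrocyte-like or choroid plexus-like cells, at least 1284-fold and at least 299.6-fold higher than the floor of 3 UMIs over the class. *Dnah5*, an outer arm heavy chain, was at 245, 162 and 195 CPM, against 0.707, 0.719 and 0 CPM in astrocyte-like cells and 0 UMIs in choroid plexus-like cells. The neuron-like level of *Dnah5* was 2.95, 2.45 and 6.58 CPM, and all 25 of its UMIs there lay in the *Neurod1* cluster. *Dnah9*, another outer arm heavy chain, was at 183, 201 and 254 CPM in ependymal-like and 6.81, 9.88 and 9.55 CPM in choroid plexus-like cells, a difference of 24.5-fold (counting interval 16.3 to 38.4). *Dnah6* stood at 278, 291 and 371 CPM in ependymal-like cells, 11.9, 11.1 and 23.3 CPM in choroid plexus-like cells and 2.90, 3.45 and 2.63 CPM in vascular-like cells. The ependymal-like libraries lay above those of every other named class for each of these 4 genes.

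The 3 dynein genes not called were *Dnah7b*, *Dnah8* and *Dnah17*. *Dnah7b* was at 65.4, 60.2 and 49.9 CPM in ependymal-like and 21.2, 17.3 and 15.8 CPM in astrocyte-like cells, a log2 ratio of 1.47 with 5 CPM added. Its near-identical copies *Dnah7a* (83.8, 84.2 and 86.7 against 3.30, 2.64 and 3.40 CPM) and *Dnah7c* (16.8, 40.1 and 45.5 against 0.236, 0 and 0.243 CPM) were both called. How the counting treated reads shared by the 3 copies is not given in the sources used here, so each level is uncertain. *Dnah8* and *Dnah17*, heavy chains best known from sperm, had 0 UMIs in ependymal-like cells. Among the 5 hippocampal classes their highest levels were 1.48 CPM for *Dnah8* (vascular-like) and 0.930 CPM for *Dnah17* (neuron-like). In the cortex, neuron-like cells had 10 UMIs of *Dnah8* (8.93 CPM).

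Radial spokes link the outer doublets to the central pair. Of 8 *Rsph* genes, 5 were called higher in ependymal-like than in astrocyte-like cells, with a median log2 ratio of 2.64. *Rsph1*, a spoke head protein (chromosome 17, 31255019 to 31277383 on the minus strand), was at 1204, 1093 and 1206 CPM in ependymal-like, 171, 243 and 172 CPM in choroid plexus-like and 0.707, 0.479 and 1.21 CPM in astrocyte-like cells. *Rsph4a*, another spoke head protein, was at 295, 311 and 308 CPM in ependymal-like cells, 19.6, 27.2 and 21.2 CPM in choroid plexus-like cells and 1 UMI in astrocyte-like cells. The 3 classes did not overlap for either gene. *Rsph10b* differed little between the ventricular classes, with 126, 140.4 and 141 CPM in ependymal-like and 81.7, 79.1 and 73.2 CPM in choroid plexus-like cells, 1.72-fold (counting interval 1.42 to 2.09), and 1.41, 0.959 and 0.728 CPM in astrocyte-like cells. *Rsph14* reached 46.9, 36.1 and 41.2 CPM in ependymal-like and 2.55, 6.18 and 2.12 CPM in choroid plexus-like cells. *Rsph9*, also of the spoke head, was broader, with 298, 269 and 269 CPM in ependymal-like, 151, 145 and 163 CPM in choroid plexus-like, 61.2, 57.8 and 69.7 CPM in astrocyte-like and 29.0, 36.4 and 26.3 CPM in neuron-like cells. In ependymal-like cells the stalk genes *Rsph3a* (25.1, 8.02 and 15.2 CPM) and *Rsph3b* (8.38, 4.01 and 6.505 CPM) were not called, with 5 CPM added. In astrocyte-like cells they were at 1.44 and 0.638 CPM. With nothing added the ratios were 11.6-fold (counting interval 6.14 to 22.5) and 10.1-fold (counting interval 3.58 to 29.4). *Rsph3a* and *Rsph3b* are near-identical copies, and how reads they share were counted is not given, so both levels are uncertain.

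Of the 5 tektins, 4 were called higher in ependymal-like than in astrocyte-like cells. *Tekt1* (chromosome 11, 72344722 to 72362442 on the minus strand) was at 374, 319 and 382 CPM in ependymal-like, 83.4, 98.8 and 98.7 CPM in choroid plexus-like, 1.88, 0.959 and 3.16 CPM in astrocyte-like and 5.41, 6.13 and 6.08 CPM in neuron-like cells. *Tekt4* was at 139, 152 and 145 CPM in ependymal-like and 2.55, 8.65 and 6.37 CPM in choroid plexus-like cells. In ependymal-like cells *Tekt2* (30.2, 22.1 and 47.7 CPM) and *Tekt3* (15.1, 18.05 and 19.5 CPM) also lay above every other class. *Tekt5*, known from sperm, was the exception: its 5.03, 8.02 and 10.8 CPM in ependymal-like cells overlapped the 6.81, 12.4 and 6.37 CPM of choroid plexus-like cells.

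The *Cfap* genes encode assorted axonemal parts, among them proteins inside the microtubules, of the central pair and of the inner arm tethers. They showed the largest family median over astrocyte-like cells, a log2 ratio of 4.17, and 23 of 26 were called. *Cfap126* (Flattop, a basal body protein; chromosome 1, 171113918 to 171126967 on the plus strand) was at 746, 639.8 and 668 CPM in ependymal-like, 129, 179 and 80.6 CPM in choroid plexus-like and 2.59, 3.12 and 1.94 CPM in astrocyte-like cells. *Cfap54*, of the central pair, was at 402, 389 and 529 CPM in ependymal-like and 12.8, 7.41 and 9.55 CPM in choroid plexus-like cells. *Cfap161* was at 300.1, 301 and 299 CPM in ependymal-like and 3.41, 11.1 and 11.7 CPM in choroid plexus-like cells, and *Cfap45*, which lies inside the doublets, at 262, 297 and 299 and 33.2, 45.7 and 25.5 CPM. Each of these last 2 had 1 UMI in astrocyte-like cells. The 3 not called were *Cfap73*, *Cfap36* and *Cfap97*. *Cfap73* had UMIs in ependymal-like cells alone among the 5 classes, but with 16 UMIs (18.4, 4.01 and 6.505 CPM). *Cfap36* and *Cfap97* were found in every class, *Cfap36* at 66.4, 81.7 and 80.4 CPM and *Cfap97* at 30.9, 33.8 and 34.5 CPM in astrocyte-like cells, and the neuron-like libraries of *Cfap97* (48.2, 54.0 and 43.5 CPM) overlapped the ependymal-like ones (65.4, 42.1 and 30.4 CPM). *Cfap36* was named after its values were seen.

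**Figure D3:**
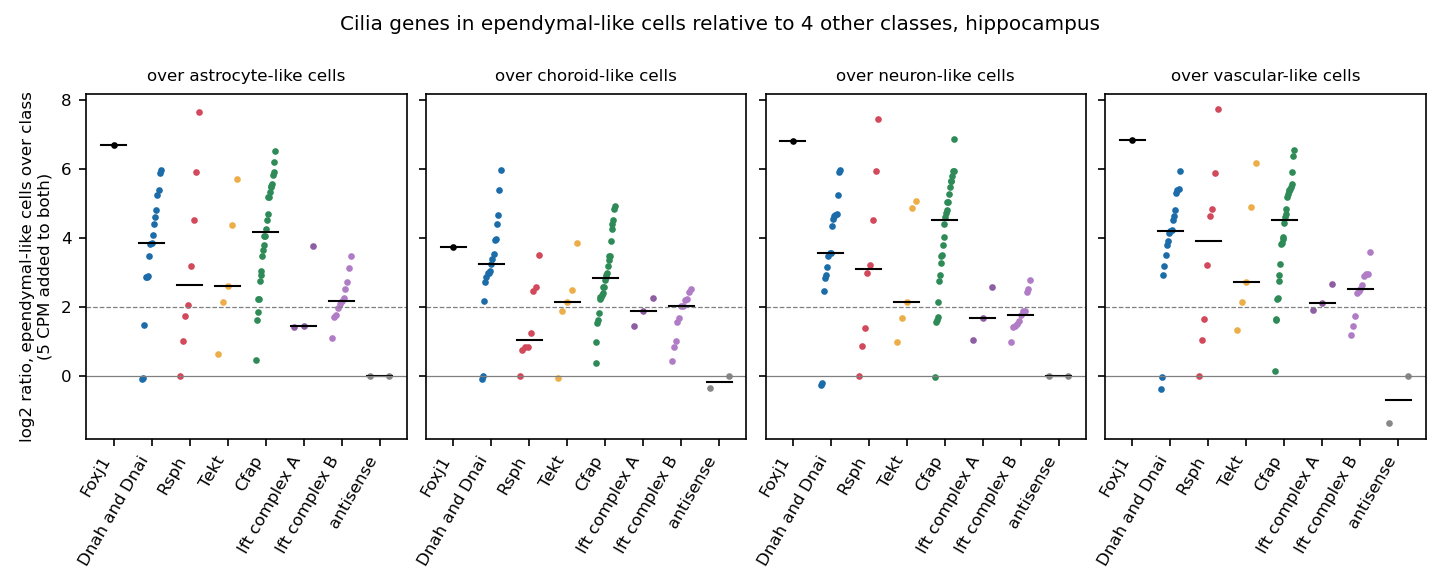
Log2 ratio of ependymal-like cells over 4 other hippocampal classes for each cilia gene, 5 CPM added to both sides, by gene family; each point is 1 gene, bars are family medians and the dashed line marks the 4-fold ratio needed for a call. Cfap and dynein genes lie mostly above the line, and Ift genes lie around it.

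RFX factors bind the X-box and FOXJ1 a forkhead site, so RefSeq promoter windows (GRCm38.p6; 250 bases before to 50 after the start site) were searched on both strands. Windows were found for 57 of the 73 genes, *Foxj1*, *Rsph1* and *Ift81* not among them. The short X-box GTTGCC stood in 21 of them (36.8%), against 14.1% of 27025 genes. The full X-box, GTTNCC followed after 3 bases by GNAAC, which can contain the short site on either strand, stood in 4 (7.02%, all genes 0.936%), and the forkhead core TGTTTAC in 4 (7.02%, all genes 4.05%). Among the 11 *Ift* windows, 5 held the short site and 0 the full one. A match of letters is a description and no evidence of binding. The 4 windows shown are all those with a full X-box. All 4 genes were called higher in ependymal-like than in astrocyte-like cells, as were most of the 73 genes. All 4 genes lie on the plus strand, with windows of Cfap45 at chr1:172520880-172521179, Cfap61 at chr2:145934534-145934833, Cfap44 at chr16:44394549-44394848, Tekt4 at chr17:25471340-25471639. Capitals mark the X-box, whose first base lies at position Cfap45 -19, Cfap61 -8, Cfap44 -27, Tekt4 0 relative to the start site (0). Read as printed, the capitals of Cfap61 match the stated letters, and those of Cfap45, Cfap44 and Tekt4 match them as the reverse complement.
Cfap45: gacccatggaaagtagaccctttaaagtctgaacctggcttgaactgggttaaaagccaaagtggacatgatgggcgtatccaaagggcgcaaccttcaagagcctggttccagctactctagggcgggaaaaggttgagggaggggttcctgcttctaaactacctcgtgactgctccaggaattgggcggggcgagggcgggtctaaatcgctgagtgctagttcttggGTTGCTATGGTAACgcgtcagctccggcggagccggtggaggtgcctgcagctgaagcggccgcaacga
Cfap61: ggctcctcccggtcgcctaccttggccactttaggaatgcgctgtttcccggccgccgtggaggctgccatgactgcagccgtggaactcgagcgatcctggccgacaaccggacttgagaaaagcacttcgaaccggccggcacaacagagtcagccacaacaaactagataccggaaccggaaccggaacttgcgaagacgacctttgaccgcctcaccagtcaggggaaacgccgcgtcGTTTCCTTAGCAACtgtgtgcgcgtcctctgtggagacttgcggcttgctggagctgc
Cfap44: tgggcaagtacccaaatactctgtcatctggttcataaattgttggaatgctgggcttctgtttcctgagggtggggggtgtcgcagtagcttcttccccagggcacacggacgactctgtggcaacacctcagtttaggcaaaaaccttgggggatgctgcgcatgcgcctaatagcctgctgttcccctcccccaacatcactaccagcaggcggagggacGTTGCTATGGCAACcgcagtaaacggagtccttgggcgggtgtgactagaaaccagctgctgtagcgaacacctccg
Tekt4: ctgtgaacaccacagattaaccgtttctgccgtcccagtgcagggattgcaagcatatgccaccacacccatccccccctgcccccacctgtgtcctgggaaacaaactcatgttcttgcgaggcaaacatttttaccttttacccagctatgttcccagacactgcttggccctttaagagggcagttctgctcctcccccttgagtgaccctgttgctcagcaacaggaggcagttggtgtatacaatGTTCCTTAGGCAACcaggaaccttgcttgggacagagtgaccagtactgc

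Intraflagellar transport genes were found in every class and were higher in ependymal-like cells. Over astrocyte-like cells, 1 of 3 complex A genes and 7 of 11 complex B genes were called, with median log2 ratios of 1.46 and 2.16. *Ift43*, of complex A (chromosome 12, 86082541 to 86162459 on the plus strand), was at 339, 355 and 327 CPM in ependymal-like, 62.2, 85.3 and 56.2 CPM in choroid plexus-like, 22.8, 17.01 and 20.6 CPM in astrocyte-like and 51.6, 54.4 and 50.1 CPM in neuron-like cells. The other two complex A genes were not called, with 77.1, 78.2 and 65.0 against 25.9, 22.3 and 24.5 CPM for *Ift122* and 18.4, 32.1 and 34.7 against 7.30, 7.43 and 5.83 CPM for *Ift140*, although their libraries did not overlap either. In complex B, *Ift88*, a core subunit, was at 124, 98.3 and 117 CPM in ependymal-like and 5.42, 6.95 and 4.86 CPM in astrocyte-like cells. *Ift22*, a small GTPase-like subunit, was at 344, 341 and 314 and 31.6, 34.99 and 34.5 CPM in the same classes. *Ift172* (107, 78.2 and 99.7 and 10.6, 10.54 and 9.47 CPM) and *Ift74* (191, 237 and 236 and 35.1, 34.3 and 33.3 CPM) differed by log2 ratios of 2.73 and 2.51. *Ift27*, a small GTPase that links the train to the BBSome, differed least between ependymal-like and astrocyte-like cells. It was at 241, 229 and 208 CPM in ependymal-like, 97.04, 105 and 105 CPM in astrocyte-like and 78.7, 70.7 and 82.0 CPM in neuron-like cells. *Ift57* also stayed below the call, at 176, 136 and 163, 45.0, 45.3 and 46.6 and 68.8, 41.7 and 56.7 CPM.

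Choroid plexus-like cells held part of the module. Of the 73 genes, 12 were called higher than in astrocyte-like cells (2.35% of all genes) and 0 lower (6.2%). They were *Foxj1*, *Rsph1*, *Rsph4a*, *Rsph10b*, *Tekt1*, *Cfap44*, *Cfap45*, *Cfap52*, *Cfap53*, *Cfap69*, *Cfap126* and *Cfap206*, and no dynein or *Ift* gene was among them. The count was 14 with shared barcodes left out, 5 when cells were classed by their own marker UMIs, 23 with 1 CPM added, 29 at a limit of 2-fold, and 0 with own-marker classes and no upper limit on genes. The 2.35% belongs to the main rule alone. The share of all genes called under these alternatives is not given, so their counts cannot be read against it. *Cfap52*, which lies inside the microtubules, was at 40.9, 51.9 and 46.7 CPM in choroid plexus-like and 0.236, 0.479 and 0 CPM in astrocyte-like cells. Over microglia-like cells 17 were called higher (4.67% of all genes) and 0 lower (8.47%). Among genes called higher in ependymal-like than in choroid plexus-like cells, the heavy chains *Dnah3*, *Dnah5*, *Dnah10* and *Dnah12* and also *Cfap99*, *Cfap221* and *Tekt3* each had 0 UMIs among the 2926111 UMIs of choroid plexus-like cells, where 3 UMIs would be 1.03 CPM. *Dnah3* and *Dnah10* were at 82.2, 94.3 and 132 and 136, 118 and 104 CPM in ependymal-like cells, and *Cfap221* and *Cfap99* at 36.9, 38.1 and 23.9 and 15.1, 20.1 and 21.7 CPM. These 4 were named after their values were seen, as was *Dnah11*. Other heavy chains were found in choroid plexus-like cells, among them *Dnah6*, *Dnah9* and *Dnah11* with 45, 25 and 37 UMIs (15.4, 8.54 and 12.6 CPM). Astrocyte-like cells had 4, 1 and 0 UMIs of these 3 genes. With nothing added, *Dnah6* was 48.2-fold higher (counting interval 17.6 to 185) and *Dnah11* at least 52.8-fold. All 3 stayed below the call because 5 CPM was added. *Dnah7b* went the other way, at 9.23 against 18.1 CPM.

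Without shared barcodes the values were similar. The 267 choroid plexus-like cells without them had 41.7 CPM of *Foxj1*, 202 CPM of *Rsph1* and 102 CPM of *Tekt1*. The class joined a cluster of 627 barcodes with a median of 767 UMIs, 556 of them shared, and a cluster of 198 cells with a median of 7170 UMIs, 2 of them shared. *Foxj1* was at 45.1 and 41.7 CPM in these clusters, *Rsph1* at 129.9 and 206 CPM and *Rsph10b* at 34.3 and 88.5 CPM. *Dnah3*, *Dnah5*, *Dnah10* and *Dnah12* had 0 UMIs in the whole class, so their 0 in each part of it follows and adds nothing.

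**Figure D4:**
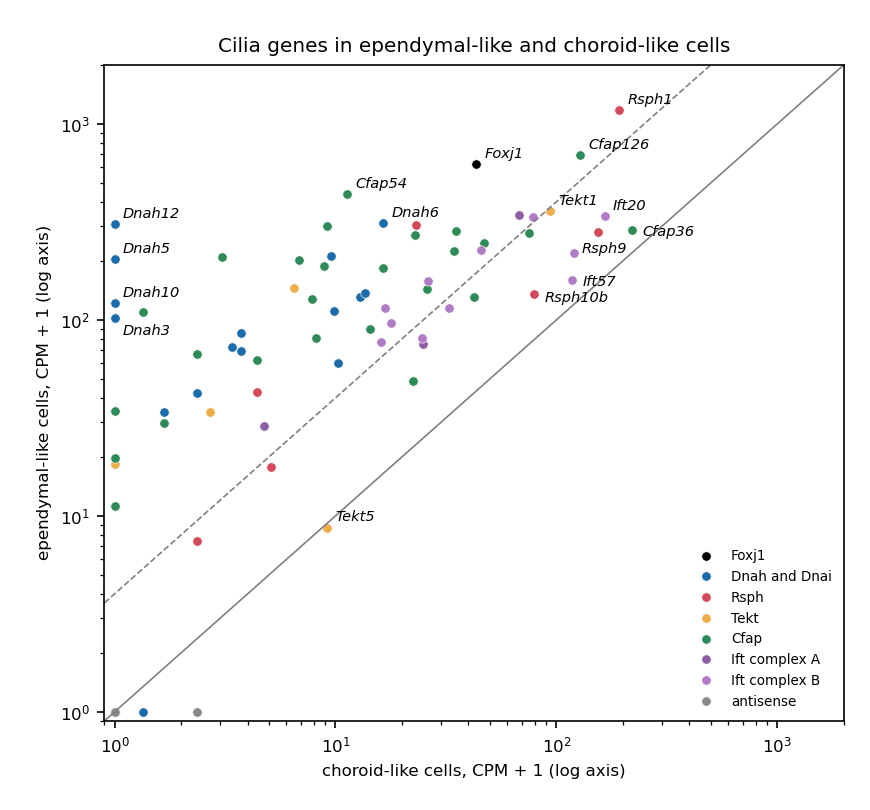
Level of each cilia gene in ependymal-like cells against choroid plexus-like cells, CPM + 1 on log axes, coloured by family; each point is 1 of the 73 genes, the solid line marks equal levels and the dashed line a 4-fold ratio. Most points lie above the solid line, and genes with 0 UMIs in choroid plexus-like cells lie at the left edge, Dnah3, Dnah5, Dnah10 and Dnah12 uppermost and Cfap73, Cfap99, Cfap221 and Tekt3 lower.

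Other genes of the motile cilium were taken from lists chosen for the pathway. Over astrocyte-like cells, 11 of 14 genes for dynein assembly and docking were called higher, 9 of 9 for the nexin-dynein regulatory complex and the axonemal rulers, and 14 of 16 for the central pair and other axonemal parts, where 6.27% of all genes were. Their median log2 ratios were 3.46, 4.64 and 4.98, against 0 for all genes. Over choroid plexus-like cells 10, 7 and 11 were called, where 7.77% of all genes were. *Zmynd10*, a dynein assembly factor, was at 163, 140.4 and 169 CPM in ependymal-like, 14.7 CPM in choroid plexus-like and 0.638 CPM in astrocyte-like cells. *Ccdc39*, a ruler protein that sets the repeat along the doublet, was at 327, 281 and 304 CPM in ependymal-like and 19.8 CPM in astrocyte-like cells. *Ccdc153*, of the regulatory complex, was at 2366, 2076 and 2242 CPM in ependymal-like cells, 0.684 CPM in choroid plexus-like cells and 0.798 CPM in astrocyte-like cells. *Spag17*, of the central pair, was at 285, 299 and 308 CPM in ependymal-like cells and had 0 UMIs in both other classes.

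Among 11 regulators of ciliogenesis, 5 were called higher in ependymal-like than in astrocyte-like cells (6.27% of all genes, median log2 ratio of the list 1.39): *Foxj1*, *Trp73*, *Myb*, *Deup1* and *Rfx2*. *Myb* was at 95.6, 84.2 and 104 CPM in ependymal-like cells with 0 UMIs in astrocyte-like cells, and *Trp73* at 45.3, 42.1 and 45.5 CPM with 1 UMI there. *Trp73*, which also acts in Cajal-Retzius neurons, was at 37.4, 42.5 and 39.0 CPM in neuron-like cells, and these libraries overlapped the ependymal-like ones. *Rfx3* and *Rfx4*, which also serve primary cilia or neural development, did not separate these classes by the call, with 89.3 against 52.9 CPM and 103 against 116 CPM. *Mcidas* and *Foxn4*, which act early when a cell commits to many cilia, had 0 UMIs in ependymal-like cells.

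Transport genes outside the *Ift* names were compared in the same way. Of 11 other IFT subunits 7 were called higher than in astrocyte-like cells, of 11 motor genes 3 (*Wdr34*, *Wdr60* and *Dync2li1*, of the retrograde dynein) and of 9 BBSome genes 3 (*Bbs5*, *Bbs7* and *Ttc8*). Of all genes, 6.27% were called higher in this comparison. The median log2 ratios of these lists were 2.20, 1.42 and 1.60. The kinesin genes *Kif3a* (136 against 54.2 CPM) and *Kif3b* (29.6 against 17.1 CPM) were not called. Of 11 genes of primary cilium signalling, 0 were called higher and 1 lower, where 2.84% of all genes were lower, and the median log2 ratio was -0.24. That gene was *Ptch1*, the Hedgehog receptor, at 15.1, 14.04 and 2.17 CPM in ependymal-like and 156, 129 and 152 CPM in astrocyte-like cells. *Gli2*, a transcription factor of the same pathway, was at 1.93 and 21.2 CPM, and *Arl13b*, a ciliary GTPase, at 78.4 and 18.3 CPM, neither past the call.

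Cells differ in depth, so 1000 UMIs were drawn from each cell, once and at random, which dropped cells of lower depth (79 of 210 ependymal-like and 507 of 825 choroid plexus-like cells). Of the 131 ependymal-like cells, 100.0% (97.2 to 100.0) held a UMI of a motile axoneme gene. The share was 69.2% (63.8 to 74.2) in choroid plexus-like, 26.9% (24.8 to 29.1) in astrocyte-like, 29.5% (25.8 to 33.4) in neuron-like, 19.6% (18.03 to 21.2) in vascular-like and 17.4% (16.4 to 18.4) in microglia-like cells. Outside the ventricular classes such a UMI can come from broadly found genes such as *Cfap20*, *Cfap36* and *Cfap97*, which were not separated here. In full-depth cells the same shares came to 99.5%, 67.4%, 74.7%, 89.3%, 73.6% and 68.7%, at median depths of 4296, 875, 6484, 10340, 6549 and 6645 UMIs. The number of different motile axoneme genes in a cell separated the classes more sharply. A thinned ependymal-like cell held a median of 7 (quartiles 5 and 9, range 2 to 16) and, unthinned, 36 of the 56. Choroid plexus-like cells held a median of 1 and the other classes 0 after thinning. At least 5 genes were found in 111 of 131 ependymal-like cells (84.7%, 77.4 to 90.4), in 1 of 318 choroid plexus-like cells, and in none of 1746 astrocyte-, 590 neuron-, 2409 vascular- and 5814 microglia-like cells. Another random draw would shift counts of cells near that limit.

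By gene, *Rsph1* was found in 73.3% of thinned ependymal-like cells (64.8 to 80.6) and 16.98% of choroid plexus-like cells, and in 0.0688% of microglia-like cells, which should lack it. *Foxj1* was found in 51.1% (42.3 to 59.97) of ependymal-like, 3.14% (1.52 to 5.71) of choroid plexus-like, 0.229% (0.0625 to 0.586) of astrocyte-like and 0.0688% (0.0187 to 0.176) of microglia-like cells. The intervals of its astrocyte-like and microglia-like shares overlapped. *Dnah12* was found in 24.4% of thinned ependymal-like cells, and in 79.4% of the same cells unthinned.

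**Figure D5:**
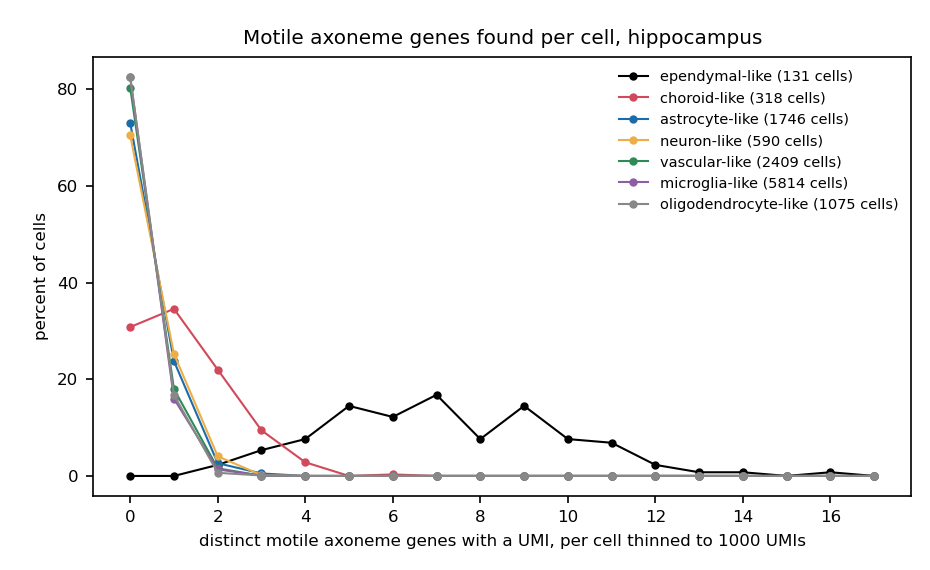
Number of different motile axoneme genes with a UMI in each hippocampal cell after thinning to 1000 UMIs, as percent of cells of a class. Ependymal-like cells centre on 7 genes, choroid plexus-like cells on 1 and the other classes on 0.

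Outside the ventricular lining, microglia-like cells served as the level to compare with, since mature microglia are not multiciliated. In astrocyte-like cells 4 of 73 genes were called higher than in microglia-like cells (6.46% of all genes): *Dnah7b*, *Rsph9*, *Ift27* and *Ift57*. In neuron-like cells 5 were (8.18%): *Rsph9*, *Ift27*, *Ift43*, *Ift57* and *Ift81*. In vascular-like cells only *Ift43* was (6.53%). Between neuron-like and astrocyte-like cells no gene was called (4.44% of all genes higher and 2.53% lower). These shares are near or below the background of all genes. Adding 5 CPM shrinks ratios between low levels, so a gene not called may still differ. *Dnah7a*, not called, was at 6.82 CPM in neuron-like and 0.123 CPM in microglia-like cells, 55.4-fold (counting interval 22.0 to 179) with nothing added. *Cfap45* went the other way uncalled, at 0.155 and 8.42 CPM. Between neuron-like and astrocyte-like cells, *Dnah5* was at 3.87 and 0.479 CPM and *Dnaic1* at 0.465 and 13.2 CPM. *Dnaic1* overlaps *Enho* on the other strand, and how strand was used in counting is not given. *Cfap74*, of the central pair and named after its values were seen, was the gene called lower than in microglia-like cells in neuron-like (4.64% of all genes) and vascular-like cells (3.88%), and no gene was called lower in astrocyte-like cells (5.25%). It was at 39.3, 34.2 and 34.6 CPM in microglia-like cells of the hippocampus and 29.1, 31.6 and 26.2 CPM in those of the cortex, against 1.97, 2.04 and 6.08 CPM in neuron-like and 1.13, 1.05 and 0.821 CPM in vascular-like cells. Its gene overlaps *5830444B04Rik* on the other strand, and whether the counting used strand is not given in the sources used here.

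Within the vascular-like class, mural cells stood out for *Ift43*. It was at 241, 239.9 and 239.6 CPM in vascular smooth muscle-like cells (89 cells), 133, 122 and 140.1 CPM in pericyte-like cells (447 cells) and 24.9, 24.0 and 23.4 CPM in endothelial-like cells (1878 cells). The cortex had the same order, 307, 294 and 239.7, 95.4, 126 and 129 and 28.7, 32.99 and 29.7 CPM. *Ift81* was at 34.4, 48.0 and 56.7 CPM in vascular smooth muscle-like, 37.6, 26.5 and 35.4 CPM in pericyte-like and 11.5, 12.4 and 6.92 CPM in endothelial-like cells. *Ift172* ran the other way between pericyte-like (17.2, 14.7 and 14.5 CPM) and endothelial-like cells (38.3, 36.9 and 34.4 CPM). *Dnah2os*, the antisense transcript within *Dnah2*, was found mainly in endothelial-like cells, at 10.3, 8.42 and 10.2 CPM in the hippocampus and 9.47, 9.51 and 10.3 CPM in the cortex, and had 0 UMIs in ependymal-like cells, where *Dnah2* was at 70.4, 52.1 and 84.6 CPM. *Dnah2* had 5 UMIs in vascular-like cells, where *Dnah2os* had 149. These genes overlap on opposite strands, and whether the counting used strand is not given in the sources used here.

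*Foxj1* was also found in oligodendrocyte-like cells. It was at 26.9, 29.97 and 25.6 CPM there (645 UMIs in 1075 cells), against 0.872, 1.32 and 0.830 CPM (4 UMIs) in oligodendrocyte precursor-like cells, a difference of 26.6-fold (counting interval 10.3 to 97.9). It was the only gene of the 73 called between these classes (1.6% of all genes higher and 3.62% lower), and the motile axoneme sum was 195, 187 and 198 CPM in oligodendrocyte-like and 260.0, 286 and 263 CPM in precursor-like cells. Adding 5 CPM shrinks ratios between low levels, so other genes may still differ. *Dnaic2*, not called, was at 1.41 and 9.04 CPM, 0.155-fold (counting interval 0.0936 to 0.258) with nothing added. *Dnah14*, which overlaps *Lbr* on the other strand, had 82 and 0 UMIs and was not called either. In the cortex, 74 oligodendrocyte-like cells held 14 *Foxj1* UMIs (21.0, 6.04 and 2.64 CPM).

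Astrocyte-like cells were compared between hippocampus and cortex over the 73 genes. The median log2 ratio, 5 CPM added, was -0.0156, against 0 for all genes, and 0.526 when cells were classed by their own marker UMIs. Over all genes with enough UMIs it was 0.0519. Many of the 73 genes were near 0 CPM in these cells, where adding 5 CPM draws a ratio toward 0. A median near 0 therefore says little about region. Of 45 genes with enough UMIs, 8 were higher in every hippocampal than in every cortical library (28.5% of all genes) and 12 were lower (20.7%). These shares are read against those of all genes. As ranked with 5 CPM added, the largest ratio was that of *Dnah7b*, at 21.2, 17.3 and 15.8 CPM in the hippocampus and 7.13, 7.38 and 7.37 CPM in the cortex. Its log2 ratio was 1.31 (counting interval 0.99 to 1.64) with nothing added, the scale of the gene ratios that follow. Genes with few UMIs can have larger ratios on that scale. *Rsph9* was at 61.2, 57.8 and 69.7 and 33.3, 32.9 and 35.1 CPM, a log2 ratio of 0.90 (counting interval 0.74 to 1.06), and *Ift81* at 30.6, 27.6 and 28.9 and 15.96, 17.2 and 21.9 CPM. *Ift80* and *Ift172* completed the 5 largest as ranked with 5 CPM added, with log2 ratios of 0.47 (counting interval 0.20 to 0.73) and 0.53 (counting interval 0.16 to 0.91). In the other direction, *Ift27* was at 97.04, 105 and 105 CPM in the hippocampus and 195, 204 and 219 CPM in the cortex, a log2 ratio of -1.005 (counting interval -1.10 to -0.91). *Tekt4* (3.77, 1.68 and 1.21 and 7.47, 10.54 and 6.80 CPM), *Tekt5*, *Rsph3b* and *Ift43* were the rest of the 5 smallest by the same ranking. Their log2 ratios were -1.89 (counting interval -2.53 to -1.30), -0.86 (counting interval -1.43 to -0.30), -1.998 (counting interval -3.30 to -0.89) and -0.46 (counting interval -0.69 to -0.24).

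Library 1 of the cortex held 1 cell in the astrocyte-like class with the profile of the ependymal-like cells: 16878 UMIs, all 8 ependymal markers, 43 of the 56 motile axoneme genes with 180 UMIs and 9 *Foxj1* UMIs. It carried 9 of the 34 *Foxj1* UMIs of cortical astrocyte-like cells. Without it the median log2 ratio was 0.00660 and *Tekt4* was at 7.15, 10.54 and 6.80 CPM in the cortical libraries.

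In vascular-like cells, 12 of 44 genes were higher in every hippocampal than in every cortical library (36.4% of all genes) and 3 were lower (12.6%). The median log2 ratio over the 73 genes was 0.0151, drawn toward 0 in the same way, and 0.0926 over all genes with enough UMIs. In pericyte-like cells 9 of 29 were higher (26.7% of all genes) and 3 lower (19.1%). In vascular smooth muscle-like cells 1 of 22 was higher (10.4% of all genes) and 0 lower (11.1%). In neuron-like cells 17 of 34 were higher (31.9% of all genes) and 3 lower (14.1%). In microglia-like cells 12 of 37 were higher (32.4% of all genes) and 3 lower (13.7%). The cortical neuron-like class held 100 cells. In the vascular-like class, *Ift172* was at 34.1, 32.1 and 30.4 CPM in the hippocampus and 19.6, 22.1 and 21.6 CPM in the cortex, and *Ift43* at 51.6, 49.1 and 48.9 and 61.0, 68.0 and 63.6 CPM. The class mix differed, with 89 vascular smooth muscle-like of 2465 cells in the hippocampus and 205 of 3104 in the cortex. *Ift43* was lower in the hippocampus in endothelial-like libraries, while pericyte-like and vascular smooth muscle-like libraries overlapped between regions. The part played by the mix was not tested. *Foxj1* and *Rsph1* had 24 and 23 UMIs in microglia-like cells of the hippocampus, where ependymal-like cells were present, and 1 and 0 UMIs in those of the cortex. *Dnah12*, at a level of 307 CPM in ependymal-like cells, had 1 UMI in microglia-like cells of the same libraries. Whether free RNA from ependymal-like cells adds to such low levels was not tested.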

How the data were processed

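Gene by barcode tables of UMI counts, deposited by the authors as raw whole-number counts per library, were used for all 6 libraries. The authors dissociated the tissue with papain, dispase and DNase, removed white matter and myelin, and sequenced 3′ ends; their processing notes name Cell Ranger 5.0.1 and mm10, while the matrix headers name software versions 3.0.1 for the cortex and 3.1.0 for the hippocampus. Because reads come from transcript 3′ ends, levels were not compared between genes. How the strand was used in counting is not given in the sources used here.

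Cells were kept at 250 to 6000 genes if under 25% of their UMIs were mitochondrial. The libraries of a preparation were integrated and clustered with Seurat 5.3.0 in R 4.3.3 (2000 variable genes, 30 principal components, resolution 0.5), with 164 cilia genes left out. A cluster was named from 16 marker lists when at least 3 markers were detected and its leading genes did not go against the name. Doublets called with Scrublet in scanpy 1.11.5 were kept. UMIs were summed per class and library and scaled to CPM, and intervals are exact Poisson or Clopper-Pearson intervals at 95%. Gene positions came from GENCODE (GRCm38). The ratio script was tested on simulated data. Named genes were *Foxj1*, per family the 4 highest and 2 lowest ratios of ependymal-like over astrocyte-like cells, the 5 highest of choroid plexus-like over astrocyte-like cells, those highest in another class, the 5 largest and 5 smallest ratios of hippocampus over cortex, and genes of the related lists; other genes were named after their values were seen. The genes and lists were chosen with earlier results of these data known. Alternatives covered cell classing, filters, integration, scaling, added CPM, ratio limit, thinning and each library left out.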

Additional observations from a re-analysis of the deposited data

Results flagged for a closer look

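Motile axoneme RNA was found in barcodes that the upper limit of 6000 genes left out of every comparison. In the hippocampus, 49 of 376 such barcodes held at least 5 different motile axoneme genes after thinning to 1000 UMIs, and in the cortex 3 of 200 did. The hippocampal ones had medians of 45865 UMIs, 7835 genes and 8 ependymal markers, a motile axoneme sum of 9605 CPM and 706 CPM of *Foxj1*. Of them 3 were called doublets and 13 were shared between libraries. The cortical ones had medians of 33452 UMIs and 7455 genes, a motile axoneme sum of 10430.0 CPM and 974 CPM of *Foxj1*, and 1 was a called doublet. With no upper limit, an alternative chosen after seeing the data, the ependymal-like class held 264 cells, 54 of them over 6000 genes, with a motile axoneme sum of 9436 CPM.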

How the results depend on the processing

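Of the alternative values of the summary results, 159 stayed close to the reported ones (within 1 SD of the libraries, or 1.5 times for a count) and 53 did not; the cause was not tested. The reported values are repeated for comparison: 55 genes were called over astrocyte-like cells, the motile median was 3.96, the *Ift* median was 2.13, 50 genes were called over choroid plexus-like cells, 50 genes were called over neuron-like cells, 58 genes were called over vascular-like cells, 12 genes were called in choroid plexus-like cells, the motile sum was 9232 CPM, the *Ift* sum was 2356 CPM, *Foxj1* was 622 CPM, the thinned share was 100.0%, the astrocyte-like regional median was -0.0156 and the vascular-like regional median was 0.0151. Sums, *Foxj1* and the thinned share are for ependymal-like cells, and medians are log2 ratios. Counts of genes called under an alternative stand without the share of all genes called under it. With cells classed by their own marker UMIs, the motile median was 3.23, the *Ift* median was 1.88, 5 genes were called in choroid plexus-like cells, the *Ift* sum was 2618 CPM, *Foxj1* was 522 CPM, the astrocyte-like regional median was 0.526 and the vascular-like regional median was 0.0275. Given cilia genes kept in the variable genes, the *Ift* sum was 2346 CPM and the astrocyte-like regional median was 0.0348. Using shared barcodes left out, the *Ift* sum was 2349 CPM and the astrocyte-like regional median was 0.00142. With called doublets left out, the *Ift* sum was 2409.6 CPM and *Foxj1* was 644 CPM. Given a mitochondrial limit of 10%, the motile median was 3.75, the *Ift* median was 1.99, the *Ift* sum was 2388 CPM, *Foxj1* was 574 CPM and the astrocyte-like regional median was 0.0310. Using no upper gene limit and cells classed by their own marker UMIs, 19 genes were called over astrocyte-like cells, the motile median was 1.76, the *Ift* median was 1.32, 0 genes were called in choroid plexus-like cells, the *Ift* sum was 2618 CPM, *Foxj1* was 522 CPM, the astrocyte-like regional median was 1.43 and the vascular-like regional median was 0.0281. With a resolution of 1.0, the astrocyte-like regional median was 0. Given replicates merged without integration, the *Ift* sum was 2346 CPM, the astrocyte-like regional median was 0 and the vascular-like regional median was 0.0325. Using mean CPM of single cells, the motile median was 3.75, the *Ift* sum was 2383 CPM, *Foxj1* was 575 CPM, the astrocyte-like regional median was 0.00828 and the vascular-like regional median was 0.0314. With 1 CPM added, the motile median was 5.68, the *Ift* median was 2.35, 23 genes were called in choroid plexus-like cells, the astrocyte-like regional median was -0.0396 and the vascular-like regional median was 0.0619. Given a ratio limit of 2, 29 genes were called in choroid plexus-like cells. Using cells not thinned, the thinned share was 99.5%. With no upper gene limit and clustering (chosen after seeing the data), the *Ift* median was 2.28, the *Ift* sum was 2375 CPM, *Foxj1* was 676 CPM and the astrocyte-like regional median was -0.118. Given cells outside the ependymal-like cluster with at least 5 motile axoneme genes left out (chosen after seeing the data), the astrocyte-like regional median was 0.00660. Leaving out each library in turn gave these ranges: genes called over astrocyte-like cells 53 to 56, the motile median 3.84 to 4.03, the *Ift* median 2.03 to 2.25, genes called over choroid plexus-like cells 49 to 51, genes called over neuron-like cells 50, genes called over vascular-like cells 58 to 59, genes called in choroid plexus-like cells 12 to 13, the motile sum 9112 to 9427 CPM, the *Ift* sum 2351 to 2359 CPM, *Foxj1* 614 to 633 CPM, the thinned share 100.0%, the astrocyte-like regional median -0.0289 to 0.0193 and the vascular-like regional median 0.00231 to 0.0225. The astrocyte-like regional median changed sign between alternatives. It lay furthest from 0 when cells were classed by their own marker UMIs (0.526, and 1.43 with no upper gene limit as well). It thus depended on how cells were classed, and the added CPM draws it toward 0, so its sign says little about region. No paired analysis was possible because the results come from no test, and same-numbered libraries of the preparations share only a number.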
